A study of Mus musculus with 18 samples.

Results

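The transcripts described here were those of 8 genes of cholesterol synthesis in the mouse carotid artery before and after wire injury, namely Hmgcs1, Sqle, Idi1, Fdps, Fdft1, Insig1, Sc5d and Srebf2. They were chosen by name, as genes of the sterol synthesis pathway and its control, among the 35655 genes of the count table, and all 8 were among the 10312 genes with enough counts to be tested. Although the set was proposed as covering cholesterol synthesis and uptake, 6 members encode synthetic enzymes and the other 2 their regulators, so genes of lipoprotein uptake were taken from a separate list.

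Wild-type male C57/BL6 mice, 11 weeks old at surgery and kept on a chow diet, had the left carotid artery injured with a wire, and the right artery served as control. The libraries were made from laser-captured carotid sections with the outer elastic lamina and, after injury, the neointima, up to 70 sections per sample, and were counted by nanoMACE sequencing, a method for small amounts of RNA that reads the 3′ end of polyadenylated transcripts. There were 4 libraries before injury (day 0), 4 at day 7, 3 at day 14, 4 at day 21 and 3 at day 28, each labelled with its own day and mouse number. The labels gave the same mouse number to 3 pairs of day 0 and day 21 libraries, and it was not stated if day 0 tissue came from contralateral arteries. The study calls the samples pooled while each label carries a single mouse number, so p-values measure the spread between these libraries.

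Cells make cholesterol by joining small acetyl units into mevalonate, then isoprenoid units, then squalene, which is folded and trimmed into sterols. The pathway is switched on as a block by the transcription factor SREBP-2, the product of Srebf2, which is held in the endoplasmic reticulum when sterols are plentiful, bound through its escort SCAP to INSIG proteins, and is released and cut by proteases when sterols run short. In the artery wall, cholesterol can also enter with lipoproteins and is exported to apolipoproteins, chiefly by cells that have taken up a surplus, such as macrophages.

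Some of the letters that SREBP and its partner factors are known to read were looked up at the start sites of the 8 genes, because a shared promoter element is the property for which the pathway is known. The stretches printed here show, 5′ to 3′ on the gene's own strand and in GRCm39 coordinates, the CCAAT box nearest upstream of the start of the canonical GENCODE transcript, bound by NF-Y, with the box in capitals (ATTGG is the box on the opposite strand), and in Hmgcs1 and Srebf2 also a sterol element in capitals. The stretches lie at chr13:120151732-120151778 (Hmgcs1, sterol element), chr13:120151877-120151921 (Hmgcs1, box), chr15:59186799-59186843 (Sqle), chr13:8935863-8935907 (Idi1), chr3:89009366-89009410 (Fdps, minus strand), chr14:63415443-63415481 (Fdft1, minus strand), chr5:28276174-28276218 (Insig1), chr9:42175606-42175640 (Sc5d, minus strand) and chr15:82031288-82031359 (Srebf2).
Hmgcs1 sterol element: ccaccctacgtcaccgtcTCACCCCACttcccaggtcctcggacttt
Hmgcs1 CCAAT box: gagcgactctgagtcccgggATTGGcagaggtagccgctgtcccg
Sqle: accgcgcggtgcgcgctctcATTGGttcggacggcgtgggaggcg
Idi1: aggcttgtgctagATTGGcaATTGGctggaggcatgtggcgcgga
Fdps: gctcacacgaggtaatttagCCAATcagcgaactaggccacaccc
Fdft1: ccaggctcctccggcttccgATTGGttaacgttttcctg
Insig1: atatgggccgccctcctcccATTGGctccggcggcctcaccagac
Sc5d: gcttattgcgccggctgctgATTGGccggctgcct
Srebf2: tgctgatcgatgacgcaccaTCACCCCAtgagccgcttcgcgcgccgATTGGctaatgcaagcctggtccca

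In the window from 250 bases before to 50 bases after the start, searched on both strands, CCAAT was present in 8 of the 8 genes, against 39.9% of 21770 promoters of protein-coding genes. The sterol element TCACNCCAC was present in 1 member, Hmgcs1, against 1.34% of all promoters, and its shorter core TCACNCCA, which overlaps it, in 2, Hmgcs1 and Srebf2, against 4.07%. The Sp1 box GGGCGG was present in 6 members, against 42.5% of promoters. In Srebf2 the core stood at bases -74 to -67 and the CCAAT box at -47 to -43, so that both fell within a single stretch. The sterol element was searched in these forms only, so a member without a match may carry another form. These matches describe letters only.

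Counting was shallow for these genes. The libraries held 440675 to 878310 counts each (median 659166), and the 8 genes together received 54 to 315 counts per library (median 125), so 1 count was worth 1.18 to 2.33 CPM (counts scaled to a common library size by TMM factors). Of the 144 values of a member in a library, 5 were at 0 and 18 at 3 counts or fewer, and 3 counts corresponded to 3.55 to 6.98 CPM. The vessel wall was as labelled at day 0, where 9 contractile smooth muscle markers summed to 35857 ± 2283 CPM (SD, n = 4), but at day 7 they summed to 3495 ± 2555 CPM (n = 4), while 11 macrophage markers went from 244 ± 171 to 5289 ± 853 CPM. At days 14, 21 and 28 the smooth muscle sums were 13133, 14292 and 23628 CPM and the macrophage sums 2153, 2492 and 856 CPM. In such bulk tissue, fewer cells of a type and less RNA per cell cannot be told apart, and the part of cell composition in the values below was not tested.

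Of the 8 genes, 1 passed the test against the uninjured vessel on any day. Srebf2 fell by day 21, to 41.8 ± 21.5 CPM (SD, n = 4) from 109 ± 61.7 CPM at day 0 (n = 4). The enzyme genes were lower on average at days 14 and 21 than at day 0, but in none of them was the difference past the threshold. Summed over the 8 genes, the level was 320 ± 130 CPM at day 0, 244 ± 56.8 at day 7, 170 ± 22.6 at day 14 (n = 3), 175 ± 65.0 at day 21 and 219 ± 56.7 CPM at day 28 (n = 3). The day 0 libraries themselves ran from 167 to 470 CPM, the widest range of the 5 days, and their lowest library lay within the range of days 14 and 21 and below that of days 7 and 28.

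**Figure D1:**
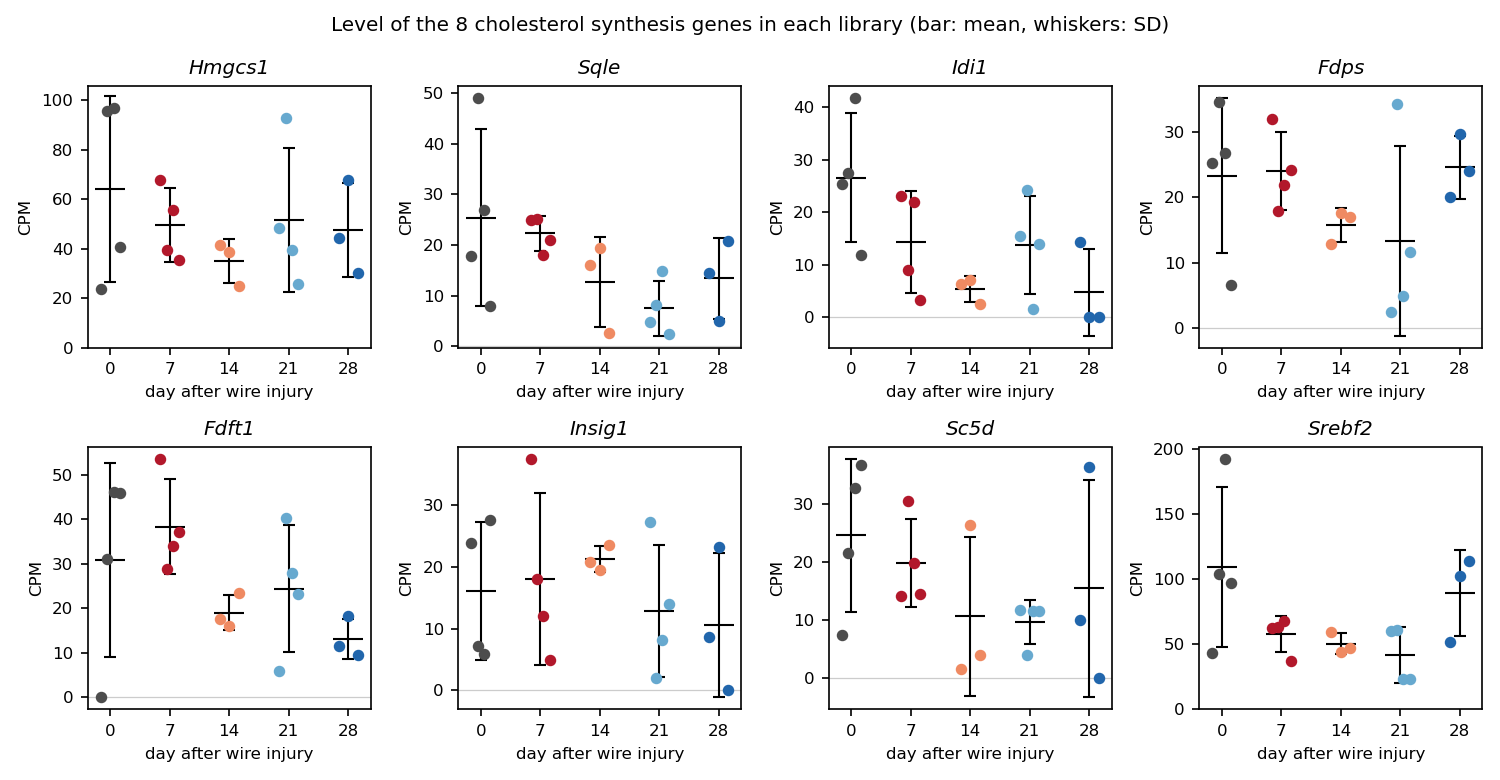
Level of each of the 8 genes in every library, in CPM on a linear axis, by day after wire injury; each point is a library, the bar the mean and the whiskers the SD. Srebf2 had a day 0 library at 192 CPM and 4 day 21 libraries between 23.0 and 60.5 CPM, and Idi1 was at 0 in 2 of the 3 day 28 libraries.

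In the test across all genes (edgeR quasi-likelihood, Benjamini-Hochberg adjusted p under 0.05), 0 of the 8 members differed between day 7 and day 0, where 19.8% of all tested genes did. At day 14, 0 of 8 members differed against 6.22% of genes, at day 21, 1 of 8 against 8.84% (2.93% lower, as this gene was), and at day 28, 0 of 8 against 1.34%. DESeq2 gave the same 4 counts of members, with Srebf2 the gene at day 21. At an unadjusted p under 0.05, the members counted 1 at day 7 (Srebf2), 2 at day 14 (Idi1 and Srebf2), 2 at day 21 (Sqle and Srebf2) and 1 at day 28 (Idi1), all of them lower than at day 0, as were 13%, 5.78%, 8.6% and 6.69% of all genes on those days. Whether these counts set the members apart from genes at large was not tested.

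The direction of the estimates was mostly downwards. Against day 0, the log2 fold change was below 0 in 5 of 8 members at day 7, in 7 at day 14, in 8 at day 21 and in 7 at day 28, where 46.7%, 47.1%, 46.6% and 50.4% of all tested genes lay below 0. The median log2 fold change of the members was -0.25, -0.95, -0.90 and -0.64 on the 4 days, beside medians of 0.07, 0.05, 0.07 and -0.01 over all genes. The 4 comparisons used the same day 0 libraries, so these figures do not add up as separate evidence. The standard error of a single member's log2 fold change was 0.40 to 1.04.

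**Figure D2:**
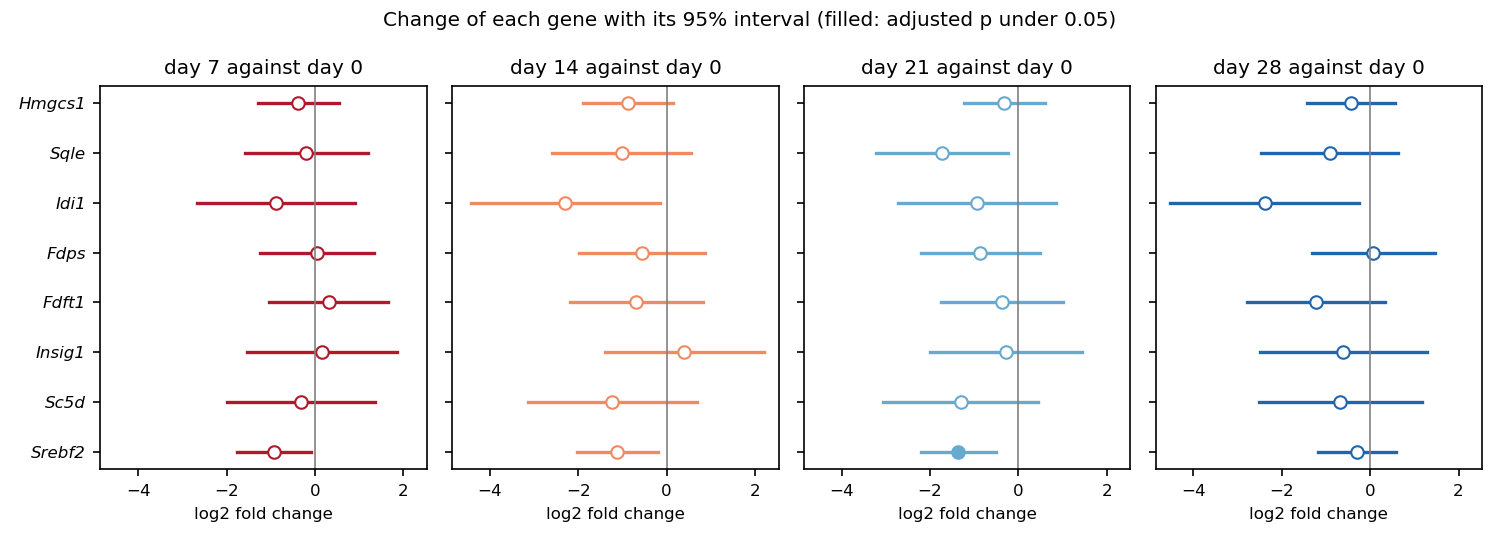
Log2 fold change of each gene against day 0 at days 7, 14, 21 and 28, with its 95% interval; a filled point is an adjusted p under 0.05 over all genes tested. All 8 points lie left of 0 at day 21, but the interval leaves out 0 only for Sqle and Srebf2, and 1 point is filled, Srebf2.

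The gene at the head of the pathway, Srebf2 (chr15:82031382-82093201, plus strand, GRCm39), carries the microRNA gene Mir33 within it and was read at its 3′ end. Before injury it stood at 43.2, 104, 192 and 97.1 CPM in the 4 libraries. At day 7 it stood at 62.3, 62.9, 67.8 and 37.1 CPM, and at day 14 at 59.2, 44.1 and 47.0 CPM. The day 7 and day 14 libraries thus all lay below 3 of the 4 day 0 libraries, while the remaining day 0 library, replicate 1, lay below most of them. At day 21 the values were 60.3, 60.5, 23.0 and 23.3 CPM, falling into a higher and a lower pair, and at day 28 they were 51.7, 102 and 113 CPM, all within the day 0 range, as were all day 14 libraries, 3 of 4 at day 7 and 2 of 4 at day 21.

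On the log2 scale Srebf2 differed from day 0 by -0.92 ± 0.40 (SE) at day 7 (adjusted p = 0.117), by -1.12 ± 0.44 at day 14 (adjusted p = 0.16), by -1.36 ± 0.41 at day 21 (adjusted p = 0.0376) and by -0.29 ± 0.43 at day 28 (adjusted p = 0.797). The 95% interval at day 21 ran from -2.21 to -0.52. From day 21 to day 28 the estimate was 1.07 ± 0.44 upwards, with an unadjusted p of 0.0221 and an adjusted p of 0.238, so the return was not past the threshold. At day 21, 5 of the 8 tested smooth muscle markers were lower and 11 of 11 macrophage markers higher than at day 0, and their part in the Srebf2 values was not tested. Tested for any difference over the 5 days, 0 of 8 members passed, against 18% of all genes, and Srebf2 had the smallest adjusted p of the 8, 0.0689.

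The day 21 call for Srebf2 was close to the threshold. Without day 0 replicate 3, the highest library, the estimate was -0.94 and the adjusted p 0.186. The call was also lost, with estimates of -1.18 to -1.41, without day 0 replicate 2 (adjusted p = 0.0639) or replicate 4 (0.0571) and without day 21 replicate 3 (0.104) or replicate 4 (0.107). With the replicate number as a block the estimate was -1.34 and the adjusted p 0.055, and over all alternatives the adjusted p ran from 0.00985 to 0.186. Without day 0 replicate 1, the lowest of its group, Srebf2 passed at day 7 as well (log2 fold change -1.19, adjusted p = 0.0317). In the deposited normalised table each count was divided by a factor, taken here relative to the median factor of its library. This relative factor was 1 for 4 of the members in every library with a count, but ranged from 0.662 to 1.15 for Srebf2. It also ranged from 0.960 to 1.70 for Sqle, from 0.825 to 1.06 for Hmgcs1 and from 0.988 to 1.13 for Fdps. With the full factors of the deposited values in place of TMM, the day 21 estimate was -1.19 with an adjusted p of 0.0507.

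The other regulator, Insig1 (chr5:28276315-28283668, plus strand), whose product holds SREBP back and whose gene is itself a target of SREBP, showed no common direction. It stood at 23.8, 7.17, 5.96 and 27.6 CPM at day 0, and at 20.8, 19.4 and 23.5 CPM at day 14, within that range. The day 7, day 21 and day 28 libraries ran from 4.84 to 37.4, from 2.02 to 27.2 and from 0 to 23.2 CPM, so every day overlapped day 0. Its log2 fold changes against day 0 were 0.16, 0.40, -0.28 and -0.60 in order of day, with adjusted p of 0.806 or more.

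Among the enzymes, Hmgcs1 (chr13:120151915-120170470, plus strand) makes HMG-CoA, an early intermediate on the way to mevalonate. Its day 0 libraries split into a low pair of 23.8 and 40.7 CPM and a high pair of 95.6 and 96.9 CPM, and it stood at 67.7, 39.5, 55.8 and 35.5 CPM at day 7 and 41.6, 38.8 and 24.8 CPM at day 14. At day 21 it stood at 48.5, 92.8, 39.5 and 25.6 CPM and at day 28 at 44.5, 67.8 and 30.4 CPM. All later days overlapped day 0, and its log2 fold changes of -0.38, -0.88, -0.32 and -0.44 had adjusted p of 0.404 or more.

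Idi1 (chr13:8935537-8942487, plus strand), the isomerase that readies isoprenoid units for joining, was the only member with a day on which every library lay outside the day 0 range. It stood at 25.3, 27.5, 41.7 and 11.8 CPM at day 0 and at 6.40, 7.06 and 2.61 CPM at day 14, all below the lowest day 0 library, which happened in 6.79% of all tested genes. The day 14 values rested on 2 to 4 counts each, and the log2 fold change of -2.29 ± 1.04 had an unadjusted p of 0.0363 and an adjusted p of 0.24. At day 7 it was spread from 3.23 to 23.1 CPM and at day 21 from 1.64 to 24.2 CPM, both across the lower end of day 0.

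At day 28, Idi1 was at 14.4 CPM in replicate 1 and at 0 in the other 2 libraries, so that a single library carried all of its counts on that day. The log2 fold change was -2.38 ± 1.04 (adjusted p = 0.272). Without day 28 replicate 1 the group was at 0 throughout, and the adjusted p became 0.0188 against day 0, 0.0189 against day 7 and 0.0497 against day 21, with fitted values that set no bound on the fold. The table listed 5 further rows for Idi1 pseudogenes, all with 0 counts.

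Fdps (chr3:89000888-89019213, minus strand), which makes farnesyl diphosphate, the branch point between sterols and other isoprenoids, had the smallest estimates of the 8 genes at days 7 and 28. Its log2 fold changes were 0.04, -0.56, -0.86 and 0.07. The 95% intervals for the fold were 0.420 to 2.53 at day 7 and 0.402 to 2.76 at day 28, so changes within those intervals were not excluded. At day 21 it stood at 2.37, 34.3, 4.93 and 11.6 CPM, where replicate 2 was as high as the highest day 0 library and the rest low. Fdps was lower in every day 14 library (12.8 to 17.6 CPM) than in any day 7 library (17.97 to 32.1 CPM) and higher again in every day 28 library (20.1 to 29.8 CPM) than at day 14, with adjusted p of 0.894 and 0.793. In those comparisons 7.59% and 6.36% of all genes lay apart in the same way. The highest day 14 library and the lowest day 7 library both held 10 counts of Fdps. In the deposited normalised values their order was reversed, at 11.5 and 10.1, so days 7 and 14 overlapped there.

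Fdft1 (chr14:63382189-63417027, minus strand), squalene synthase and the first enzyme devoted to sterols, was listed at 0 in day 0 replicate 1 and at 31.1, 46.2 and 45.9 CPM in the other day 0 libraries. It stood at 53.4, 28.8, 33.9 and 37.1 CPM at day 7, above every library of day 14 (17.6, 15.9 and 23.5 CPM) and of day 28 (11.5, 18.2 and 9.59 CPM). The drop from day 7 to day 28 was -1.54 ± 0.76 on the log2 scale (adjusted p = 0.193), and 14.4% of all genes lay apart in that way. From day 7 to day 14 the adjusted p was 0.759, and 7.59% of all genes lay apart likewise. The log2 fold changes of Fdft1 against day 0 were 0.31, -0.69, -0.37 and -1.23 in order of day, with adjusted p of 0.466 or more. Exons of Fdft1 overlap those of Ctsb on the opposite strand, a lysosomal protease gene at 802 CPM at day 0 and 2433 CPM at day 7. Whether counting used the strand is not given in the sources used here, so reads of the overlap may have been shared. The same limit held for Sqle, whose exons overlap those of Washc5 (15.8 CPM at day 0 and 19.4 CPM at day 21). It also held for Hmgcs1 and Srebf2, which overlap Nim1k and Shisa8, with 33 and 8 counts over all libraries.

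Sqle (chr15:59186869-59203043, plus strand), the oxygen-using squalene epoxidase and a point of flux control, had the largest estimate of the 8 genes at day 21. It stood at 17.9, 49.0, 26.8 and 7.87 CPM at day 0, at 24.9, 25.2, 17.9 and 21.0 CPM at day 7, and at 4.73, 8.07, 14.8 and 2.33 CPM at day 21. All 4 day 21 libraries lay below all 4 day 7 libraries, as in 9.18% of all genes, but the lowest day 0 library lay within their range. The difference from day 0 was -1.73 ± 0.73 on the log2 scale (unadjusted p = 0.0253, adjusted p = 0.149) and from day 7 -1.53 ± 0.73 (adjusted p = 0.242). At day 14 it stood at 16, 19.4 and 2.61 CPM and at day 28 at 14.4, 4.96 and 20.8 CPM, each day with a low library beside others near the day 7 level.

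Sc5d (chr9:42162891-42175605, minus strand), a late desaturase of the sterol ring, ran from 7.44 to 36.7 CPM at day 0 and from 14.2 to 30.5 CPM at day 7. At day 21 it was at 11.8, 4.04, 11.5 and 11.6 CPM, below every day 7 library, as in 9.18% of all genes. The log2 fold change from day 7 to day 21 was -0.99 (adjusted p = 0.59). At day 28 Sc5d was at 10.1, 36.4 and 0 CPM, from below the day 0 range to its upper end. Its log2 fold changes against day 0 of -0.31, -1.23, -1.31 and -0.67 had adjusted p of 0.405 or more.

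Between the later days, 0 of 8 members passed the test in each of the 6 comparisons, where 1.66% of all genes passed at day 14 against day 7, 7.26% at day 21 against day 7, 14.4% at day 28 against day 7, 0% at day 21 against day 14, 0.698% at day 28 against day 14 and 0.679% at day 28 against day 21. DESeq2 called 0 members too where it gave an adjusted p, which it withheld for all 8 members at day 21 against day 14 and for 5 of them at day 14 against day 7, so that no call was possible there. At an unadjusted p under 0.05 edgeR counted 1 member at day 21 against day 7 (Sqle) and 1 at day 28 against day 21 (Srebf2), and 0 in the others, where 19.8% and 15.1% of all genes passed in those comparisons and 10.7%, 27.5%, 4.08% and 12.9% at day 14 and day 28 against day 7 and at day 21 and day 28 against day 14.

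Over the 40 pairs of a member and a day, the coefficient of variation between libraries was above that of counting in 30, with a median of 52.5% beside 27.9%; spread between animals or samples and counting were not separated further. The heat map of library values shows the spread within days. Day 7 replicate 1 lay above the mean of the 18 libraries in all 8 genes, by little for Srebf2. Within its day, that library was the lowest for Sc5d. Day 0 replicate 1 was the lowest of its day for Hmgcs1, Fdft1, Sc5d and Srebf2 and the next to highest for Insig1. Day 21 replicate 2 was the highest of its day for Hmgcs1, Idi1, Fdps, Fdft1 and Srebf2 and the lowest for Insig1 and Sc5d.

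**Figure D3:**
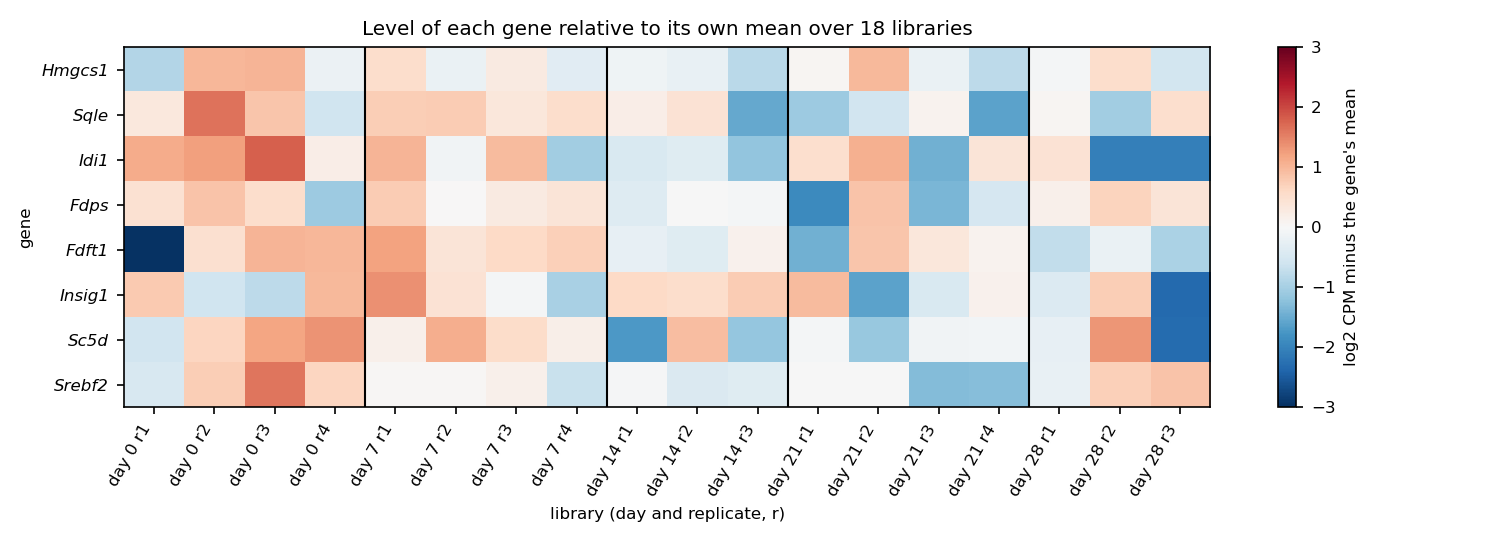
Log2 CPM of each gene (prior count 2) in each of the 18 libraries, minus the gene's own mean over the libraries; red is above and blue below that mean, and black lines part the days. Day 0 replicates 2 and 3 are red for most genes except Insig1, Fdft1 is deep blue in day 0 replicate 1, and Idi1 is deep blue in day 28 replicates 2 and 3.

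The 8 genes followed each other loosely. Over the 28 pairs of members and 18 libraries, which share library depth and day, Pearson's r had a median of 0.21 and ran from -0.33 (Fdps and Insig1) to 0.60 (Hmgcs1 and Srebf2), and 22 pairs were above 0. With each day's mean removed, the median was 0.13, 19 pairs were above 0, and Hmgcs1 and Srebf2 stood highest, at 0.70. For counts this sparse, such values describe the libraries and are not a finding. The genes whose levels over the 18 libraries were most like the mean of the 8 scaled members were Cct7 (r = 0.83), Eif4h (0.78), Uqcr11 (0.75), Atp5a1 and Sdhb (both 0.73), followed by Mcm7, Sec23ip, Cct6a, Zc3h18 and Eloc (all 0.71).

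Of 16 further mevalonate and sterol enzymes, 12 were tested, 1 rose at day 7 and 0 passed on the later days, where 19.8%, 6.22%, 8.84% and 1.34% of all tested genes passed at days 7, 14, 21 and 28, with medians of -0.01, -0.37, -0.09 and 0.14 on the log2 scale. The gene that rose was Ebp, a sterol isomerase, by 0.96 ± 0.33 on the log2 scale (adjusted p = 0.0387), a call lost in 10 of 18 fits that left out a library. Lss, Nsdhl, Hsd17b7 and Dhcr7 had too few counts to be tested.

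Of 10 regulators of SREBP processing, all were tested and 1 passed at day 7, where 19.8% of all tested genes did. It was Mbtps1, the first protease to cut SREBP, which fell with a log2 fold change of -0.89 (adjusted p = 0.0431, lost in 5 of 18 fits without a library). At days 14, 21 and 28, 0 passed, against 6.22%, 8.84% and 1.34% of all genes. Scap, the escort, and Insig2, the second retention protein, did not pass on any day: Scap was at 63.3 ± 29.2 CPM at day 0 and 59.2 ± 21.1 at day 7, and Insig2 at 43.1 ± 7.17 and 26.2 ± 11.04 CPM.

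Of 12 genes of lipoprotein uptake and lysosomal cholesterol, 10 were tested. At day 7, 2 rose and 1 fell, at day 14, 1 rose, and at day 21, 1 fell. On those days 19.8%, 6.22% and 8.84% of all tested genes passed. Npc2, which carries cholesterol out of the lysosome, rose at day 7 by 1.21 ± 0.24 on the log2 scale (adjusted p = 0.000798) and at day 14 by 1.02 (0.0161, lost without day 0 replicate 3 or day 14 replicate 2), and Lipa, the lysosomal acid lipase, rose at day 7 by 1.98 (0.0021). Vldlr, a lipoprotein receptor, fell at day 7 (log2 fold change -2.68 ± 0.63, adjusted p = 0.00316) and at day 21 (-2.48, 0.0129, but 0.0566 without day 0 replicate 2), from 98.1 ± 62.0 CPM at day 0 to 14.9 ± 13.5 and 17.5 ± 3.30 CPM. No gene of the list passed at day 28, against 1.34% of all genes.

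Of 9 genes of cholesterol export, storage and oxysterols, 8 were tested: 5 rose and 1 fell at day 7, 3 rose at day 14, 3 at day 21 and 1 at day 28, beside the same 19.8%, 6.22%, 8.84% and 1.34% of all genes, with medians of 1.72, 1.199, 1.21 and 0.47. Abcg1, a cholesterol exporter, went from 1.85 ± 2.31 CPM at day 0 to 62.9 ± 29.3 CPM at day 7 (log2 fold change 4.86, adjusted p = 0.000362), and the exporter Abca1 from 24.8 ± 31.2 to 125 ± 52.6 CPM (2.35, 0.00409). Apoe, the apolipoprotein that accepts cholesterol, rose at day 7 by 1.72 (0.000856) and was still up at days 14 (1.54, 0.0103, but 0.151 without day 14 replicate 3) and 21 (1.62, 0.00409). Soat1, which esterifies cholesterol for storage, rose at day 7 by 1.72 (0.0211, lost in 3 of 18 fits without a library), and Abcg1 was up at day 14 (3.82, 0.0132, but 0.11 without day 14 replicate 2) and day 21 (3.33, 0.0222, lost in 3 of 18).

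Ch25h, which makes 25-hydroxycholesterol, a sterol known to restrain SREBP processing, had 1 count in all 4 day 0 libraries together and stood at 94.4, 73.7, 71.8 and 24.2 CPM at day 7. Against the level of 3 counts per library at day 0, it was at least 16.04-fold higher at day 7, 7.13-fold at day 14 and 7.57-fold at day 21, with adjusted p of 8.51e-06, 0.000593 and 0.000361. At day 28 it stood at 18.7, 11.6 and 0 CPM, and its adjusted p of 0.0453 was lost in 14 of 18 fits without a library. The gene that fell in this list was Nr1h2, the oxysterol receptor LXR beta, with a log2 fold change of -0.93 at day 7 (adjusted p = 0.0423, lost in 4 of 18). Macrophage markers rose over the same days, 11 of 11 at days 7, 14 and 21 and 2 of 11 at day 28, and their part in these changes was not tested.

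Of 11 genes of fatty acid synthesis and desaturation, which the related factor SREBP-1 drives, 9 were tested. At day 21, 1 passed, where 8.84% of all tested genes did (2.93% lower). At days 7, 14 and 28, 0 passed, against 19.8%, 6.22% and 1.34% of all genes. The gene was Fads2, a desaturase, which fell at day 21 (log2 fold change -1.05, adjusted p = 0.0265, lost in 4 of 18 fits without a library). Fads2 went from 104 ± 21.8 CPM at day 0 to 49.8 ± 12.9 CPM at day 21. Srebf1 itself did not pass on any day, with log2 fold changes of -0.26, -0.12, 0.32 and 0.02.

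**Figure D4:**
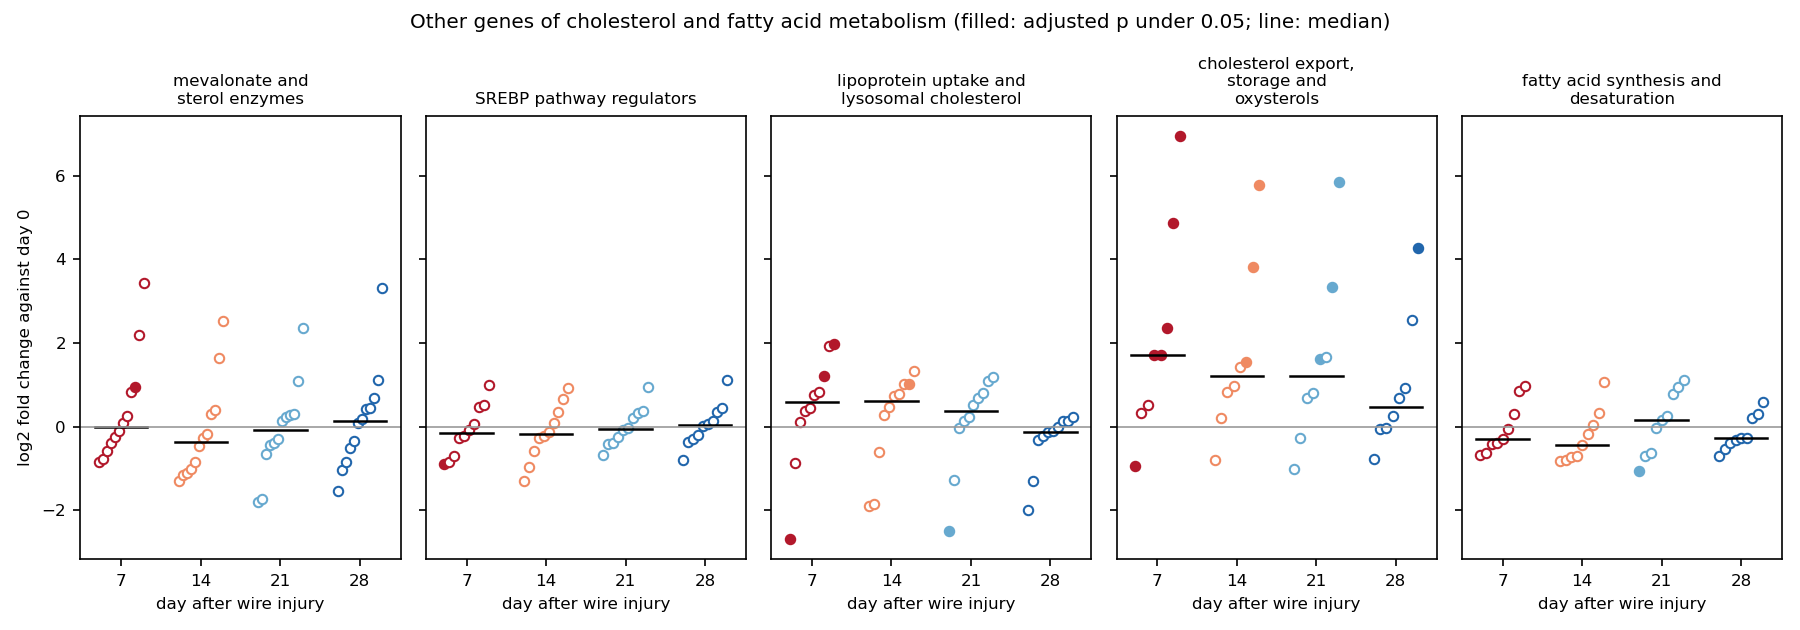
Log2 fold change against day 0 of each tested gene in 5 lists of cholesterol and fatty acid metabolism, by day after injury; filled points passed an adjusted p of 0.05 and bars are medians. Filled points above 0 stand mostly in the list of export, storage and oxysterols (5, 3, 3 and 1 on the 4 days), beside 1 in the list of further sterol enzymes at day 7 and, in the list of lipoprotein uptake, 2 at day 7 and 1 at day 14.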

How the data were processed

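Total RNA of laser-captured carotid sections from 18 samples was sequenced as 3′ mRNA libraries (75 bp reads). Per the labels, the authors used Salmon 1.9.0, the mm39 build and DESeq2 1.36.0. The annotation release and the use of strand are not given in the sources used here. The deposited raw table holds estimated counts per gene, written as whole numbers, and the deposited normalised table holds a signal, the counts times a factor that differed between genes and libraries. Estimated counts were used for all tests; the normalised signal entered an alternative added after the data were seen.

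Genes were filtered with filterByExpr (edgeR 4.0.16, R 4.3.3), scaled by TMM and tested with edgeR's quasi-likelihood test with all 5 days in a single fit and Benjamini-Hochberg adjustment over 10312 genes. Levels are CPM. Alternatives were DESeq2 1.42.0, other scalings and filters, a threshold of 0.01, a replicate block, a mouse number block and leaving out each library. Scripts were tested on simulated data; a limit on false calls first written for DESeq2 there was not met and was dropped, while that for edgeR was kept. Replicates 3 and 4 of day 0 carried the same mouse numbers as replicates 3 and 4 of day 21 (1944 and 1945). Day 0 replicate 2 shared number 1942 with day 21 replicate 1. Otherwise replicate numbers did not go with a shared mouse number, and the main fit had no term for the mouse. Samples of the same replicate number did not deviate together (median r = -0.01 over 33 pairs, and 0.004 over 96 pairs of different numbers). Over the 3 pairs of the same mouse number the median r was 0.04. No libraries were identical. The labels give no batch.

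The 8 genes and all lists were chosen with earlier results of these data known. Named are all 8 genes, list genes called in at least 1 comparison with day 0, and the 10 genes most like the members' mean. Some genes of the lists are not reported here by name. Loci and promoters come from GRCm39 and GENCODE, whose gene build may differ from that of the counts. The intervals printed are for fold changes and were built from standard errors of the edgeR fit, so they include spread between libraries.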

Additional observations from a re-analysis of the deposited data

Results flagged for a closer look

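Among 24 groups of 4 libraries, made of a member and a day, 1 held a library far from the rest. Sc5d at day 21 stood at 4.04 CPM in replicate 2 and at 11.5, 11.6 and 11.8 CPM in the others, so that the gap took up nearly the whole range. The low value rested on 2 counts, and chance alone marks about 1 in 20 such groups.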

How the results depend on the processing

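Of 932 alternative fold changes of the members, 904 kept their direction and side of the threshold and 17 reversed. All 224 alternative levels moved by less than the replicate SD, and all 80 alternative list medians were alike by the same measure. Levels that left out 1 library of a day could not have moved by as much as that SD, so they say nothing about stability. The number of members below 0 (5, 7, 8 and 7) was the same under all 5 scalings. Low counts per library limit the precision for the members, whose standard errors reached 1.04.

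For members called at day 21 against day 0, the count of 1 went to 0 at a threshold of 0.01, with the replicate block, with only the 2 days compared and with the factors of the deposited values, and ran from 0 to 1 when a library was left out. It was 0 to 1 when a library was left out at day 7 against day 0, and at day 28 against days 0, 7 and 21 (1 without day 28 replicate 1, Idi1 each time), and 0 to 2 for any difference over the 5 days, where DESeq2 and no filter gave 1 instead of 0. In 5 of 18 libraries the best correlated library carried the same replicate number, so the numbers were not taken as pairs; with the replicate block, genes called were 72 instead of 138 at day 28 against day 0 and 36 instead of 72 at day 28 against day 14. With the mouse number block on 6 libraries Srebf2 was at -1.85 (adjusted p = 0.0137).

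Reversals were of estimates near 0 with adjusted p far from the threshold; the cause was not tested. Sqle at day 7 went to 0.030 with the replicate block and from -0.50 to 0.34 over the left-out libraries, and Insig1 at day 21 to 0.49 with the mouse number block and from -0.998 to 0.11. Over the left-out libraries Fdps ran from -0.28 to 0.30 at day 7 and from -0.23 to 0.33 at day 28, Fdft1 from -0.10 to 0.56 and Insig1 from -0.53 to 0.54 at day 7, and Srebf2 at day 28 from -0.55 to 0.13.

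Counts of genes called over the whole table moved more. At a threshold of 0.01 they were 1243, 301, 365 and 37 at days 7, 14, 21 and 28 against day 0, 42, 352 and 691 at days 14, 21 and 28 against day 7, 17 at day 28 against day 14 and 22 at day 28 against day 21 (2041, 641, 912, 138, 171, 749, 1490, 72 and 70 at 0.05). DESeq2 gave 366 at day 28 against day 0, where 62% were higher instead of 72.5%, 317 at day 14 against day 7, and 30, 254 and 329 at day 21 against day 14, day 28 against day 14 and day 28 against day 21. No filter gave 363, 392, 23, 382 and 373 in the same order. Only the 2 days compared gave 32 at day 28 against day 0, 83 at day 14 against day 7, 922 at day 28 against day 7 and 4 at day 28 against day 14. Leaving out a library gave 233 (without day 14 replicate 2) to 762 at day 14 and 63 (without day 0 replicate 3) to 480 (without day 28 replicate 1) at day 28 against day 0, 26 to 318 at day 14 against day 7, 10 to 279 at day 28 against day 14 and 15 to 410 at day 28 against day 21.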
